A study of Mus musculus with 3 samples.

Results

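The nuclei described here were the 1067 tdTomato+ mesenchymal progenitor (MP) nuclei of the E14.5 mouse forelimb with the highest share of counts at 8 cartilage loci, out of 10666 nuclei of that library with at least 8000 total counts. The library held 20023 nuclei and the whole series 42365. The gate was meant to find chondrogenic nuclei, but 642 of the 1067 stood close to the remaining nuclei outside the gated loci, so those chosen are called members here. The 8 genes encode structural or secreted proteins of cartilage, namely Acan, Col2a1, Col9a1, Col9a3, Matn1, Chad, Cnmd and Snorc. The score of a nucleus was its count in the 28 peaks that overlapped these gene bodies or the 2000 bp upstream, divided by its total count, and the highest-scoring 10% were taken. The remaining 9599 nuclei that passed the depth minimum served as the comparison and are called the other nuclei.

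Chromatin accessibility had been measured by single-nucleus ATAC-seq, in which a transposase cuts open DNA and open chromatin regions (OCRs) are called as peaks. All 3 libraries of the series, 1 for each of the stages E12.5, E14.5 and E16.5, came from Hic1CreERT2/CreERT2; Rosa26LSLtdTomato/tdTomato embryos on a C57BL/6J background, whose dams had received 7.5 mg of tamoxifen by gavage at embryonic day 10. The Cre recombinase is driven by Hic1, so a nucleus is tdTomato+ if it or its ancestors used that locus after tamoxifen. There is no group without the allele or without tamoxifen. The sort had excluded CD45, CD31, Ter119, CD117, F4/80 and CD11b positive cells, which limits the blood and endothelial cells a gate could hold. The E14.5 library was made from whole forelimbs digested with Collagenase A, Pronase and DNase. The E16.5 library came from a segment around the elbow with the same digestion, and the E12.5 library from whole forelimbs digested with Dispase. With 1 library per stage there were no replicates, so no difference could be tested. All intervals given are exact 95% intervals that cover counting error only. For a list median the interval is that of its middle gene or genes, and it does not describe the spread of the list.

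Cartilage begins as condensed mesenchyme in which SOX9, with its partners SOX5 and SOX6, opens and activates the genes of the cartilage matrix. Chondrocytes then secrete a matrix of type II, IX and XI collagens, matrilins and the large sulphated proteoglycan aggrecan. In the limb these cells form the templates of the long bones, while neighbouring progenitors give rise to tendon, connective tissue and dermis.

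The gate rested on few counts. Members had a median of 9 gate counts (range 5 to 32) and the other nuclei a median of 2 (0 to 21), and 2432 nuclei, all among the others, had none. The median score was 0.0689% of total counts in members and 0.0182% in the other nuclei. The last nucleus inside the gate scored 0.0541% (6 of 11094 counts), and the first outside 0.0540% (10 of 18503 counts). Within 10% of the cut lay 236 members and 275 other nuclei. The gate was therefore a range of a continuous score and not a separate class. Members had a count at a median of 3 of the 8 loci, with 71 members at 1 locus and 358 at 3. Members were shallower than the other nuclei, with a median of 12250 against 13516 total counts, and 13.1% of the shallowest depth quintile were members against 7.17% of the deepest. The median share of counts in promoter peaks was 52.9% in members and 51.3% in the other nuclei.

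Because these values chose the members, each gate locus was also read with a gate made from the other 7. These gates chose partly different nuclei. Without Col2a1, the locus with the most pooled fragments (8844), 697 of the 1067 chosen nuclei were members. Without any other single locus, 827 to 1022 were. Read this way, 7 of the 8 loci were higher in the highest-scoring 10% than in the other nuclei, with intervals above 0. Col9a3, encoding a chain of type IX collagen, had 74.7 fragments per 1000000 fragments outside the gate (FPM) in the gated nuclei and 23.0 in the others, a log2 ratio of 1.70 (1.56 to 1.84). Matn1, a matrilin gene, had 23.8 against 8.54 FPM, a log2 ratio of 1.48. The log2 ratios of Col9a1 and Cnmd, the latter encoding the anti-angiogenic chondromodulin, were 1.08 and 1.02. Those of Acan, Col2a1 and Chad were 0.70, 0.64 and 0.55. Snorc, a small cartilage proteoglycan gene with the fewest fragments, had 6.39 against 5.98 FPM, a log2 ratio of 0.09 (−0.36 to 0.52) that did not differ from 0 beyond counting error. These are averages over all gated nuclei, at levels below those that the full gate gave by construction, and the members differed widely among themselves, as the clusters described further on show.

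Over the genome, the OCRs that differed most between members and the other nuclei lay outside promoters. Of 37779 peaks outside the gate with at least 500 fragments, 715 were 2-fold or more higher in members, or 1.89% of those tested, and 731 were 2-fold or more lower, or 1.93%. Promoter peaks made up 35.3% of the peaks tested, 3.36% of the higher peaks (24 of 715) and 0.410% of the lower ones (3 of 731). The highest peak, an intron of Ift88, a cilium transport gene, had 35.9 FPM in members and 4.86 in the other nuclei, a log2 ratio of 2.88 (2.65 to 3.11). The lowest, an intergenic peak whose nearest start site was that of Esrrg, had 1.57 against 6.61 FPM, a log2 ratio of −2.07 (−3.04 to −1.26). The same contrast chose these peaks and gave their values, which are therefore a description.

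The central 300 bp of 4 of the highest peaks and of the lowest are shown. The 4 were picked from the 10 highest after their values were seen, and not every intron peak among the 10 is shown. All 4 are introns of named genes, among them the cartilage loci Matn3 and Wwp2. The first is from the Ift88 intron, the second from an intron of Rab11fip4, the third from an intron of the cartilage gene Matn3 and the fourth from an intron of Wwp2. All are given on the plus strand of GRCm38 (mm10), from the reference genome, with capitals marking the SOX-type hexamers ACAATG and ACAAAG, the NFI arm TTGGCA (either arm of the NFI palindrome) and the E-box CAGATG on either strand. A match to these letters is a description of the window and not evidence of a bound factor.
Ift88 intron, chr14:57509672-57509971: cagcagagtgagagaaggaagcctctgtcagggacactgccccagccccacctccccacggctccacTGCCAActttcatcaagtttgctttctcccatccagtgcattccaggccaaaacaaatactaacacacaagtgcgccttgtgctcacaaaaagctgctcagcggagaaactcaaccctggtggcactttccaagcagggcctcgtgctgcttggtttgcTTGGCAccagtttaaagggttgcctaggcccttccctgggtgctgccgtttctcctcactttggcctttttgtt
Rab11fip4 intron, chr11:79650444-79650743: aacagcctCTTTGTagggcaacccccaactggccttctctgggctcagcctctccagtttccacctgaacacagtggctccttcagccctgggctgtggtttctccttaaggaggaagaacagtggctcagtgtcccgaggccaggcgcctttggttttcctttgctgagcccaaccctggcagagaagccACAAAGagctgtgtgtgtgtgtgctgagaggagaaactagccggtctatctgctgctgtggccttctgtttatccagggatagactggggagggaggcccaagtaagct
Matn3 intron, chr12:8954313-8954612: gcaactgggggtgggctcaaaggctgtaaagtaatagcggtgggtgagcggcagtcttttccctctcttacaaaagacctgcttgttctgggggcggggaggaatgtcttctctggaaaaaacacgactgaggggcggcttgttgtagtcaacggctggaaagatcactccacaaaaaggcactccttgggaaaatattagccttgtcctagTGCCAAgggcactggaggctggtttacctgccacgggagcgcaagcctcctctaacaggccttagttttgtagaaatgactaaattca
Wwp2 intron, chr8:107522456-107522755: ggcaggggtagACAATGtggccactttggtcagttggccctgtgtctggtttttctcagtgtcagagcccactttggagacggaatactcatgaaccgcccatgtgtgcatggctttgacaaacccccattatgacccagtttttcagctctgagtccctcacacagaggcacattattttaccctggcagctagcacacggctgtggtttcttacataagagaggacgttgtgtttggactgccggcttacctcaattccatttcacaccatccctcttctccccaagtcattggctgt
Lowest peak, near Esrrg, chr1:187514300-187514599: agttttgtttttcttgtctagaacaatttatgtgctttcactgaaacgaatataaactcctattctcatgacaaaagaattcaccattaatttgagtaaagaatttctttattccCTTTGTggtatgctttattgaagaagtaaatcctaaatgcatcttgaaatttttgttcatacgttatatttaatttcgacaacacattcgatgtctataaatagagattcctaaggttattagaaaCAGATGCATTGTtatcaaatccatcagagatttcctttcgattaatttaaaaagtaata

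The Ift88 window holds 2 copies of the NFI arm and neither SOX hexamer, and the Matn3 window holds 1 copy of the NFI arm. The Rab11fip4 window holds 2 copies of ACAAAG, and the Wwp2 window 1 copy of ACAATG. The window that was lowest in members also holds both SOX hexamers, with an E-box directly beside its ACAATG.

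The remaining peaks of the 10 highest lay at chr5:37724843-37725908, between genes and 8205 bp from the start of Stk32b (log2 ratio 2.87), in an intron of Pde6a (2.75), at chr5:124963852-124964665, between genes and nearest to Rflna (2.70), at chr11:88765068-88766182, between genes and nearest to Msi2 (2.61), at chr11:4192068-4193166 in an intron of Tbc1d10a (2.46) and at chr10:83130479-83131312 in an intron of Chst11 (2.45). The Rab11fip4, Matn3 and Wwp2 peaks had log2 ratios of 2.80, 2.60 and 2.54. Matn3 encodes a matrilin, Chst11 a chondroitin sulphotransferase, and Wwp2 a ubiquitin ligase whose gene hosts the cartilage microRNA miR-140. None of the 10 lay within 100 kb of a gate gene. Among the central 300 bp windows not shown, that near Stk32b held the NFI arm and that near Rflna held ACAAAG. The Chst11 window held only the E-box, and the Msi2 and Tbc1d10a windows held none of the marked letters. The window of the Pde6a peak was left out of this description.

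Cartilage loci outside the gate were higher in members. Over all 14487 protein-coding genes with at least 1000 pooled fragments the median log2 ratio was 0.01, the central 95% of genes lay between −0.32 and 0.35, and 88 genes were 1.5-fold or more higher, or 0.607% of those tested, and 50 were 1.5-fold or more lower, or 0.345%. Of 46 cartilage genes outside the gate, 45 had a peak with enough fragments (100 or more), with a median log2 ratio of 0.27 (0.12 to 0.41). Of these 45 genes, 13 were 1.5-fold or more higher and none was 1.5-fold or more lower. The lists were chosen with earlier results of these data known, so these numbers are a description. Their minimum of 100 fragments is also lower than the 1000 asked of all genes.

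Of the cartilage lists, the matrix list differed most, although it also holds genes that do not encode matrix proteins. Of 20 matrix genes 19 could be read, with a median log2 ratio of 0.62 (0.54 to 0.69), and 11 of the 19 were 1.5-fold or more higher. Summed over the list, members had 1529 and the other nuclei 1046 FPM. With every nucleus thinned to 4000 fragments, members had a fragment at a median of 4 matrix loci and the other nuclei at 3. The matrix median was 0.66 when the other nuclei were weighted to the members' depth and promoter share.

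The highest matrix gene was Col11a2, a chain of type XI collagen, with 64.5 FPM in members and 22.0 in the other nuclei, a log2 ratio of 1.55 (1.41 to 1.70). Its only peak, chr17:34038338-34041905, is also within reach of a second gene, so the value cannot be assigned to Col11a2 alone. Scin, encoding an actin-severing protein, had 27.5 against 11.9 FPM (log2 ratio 1.21). Matn3 had 66.8 against 31.01 (1.11), and the intron peak shown above held 48.2% of its member fragments. Ncmap, a membrane protein gene, had 36.0 against 17.4 FPM (1.05), and Papss2, an enzyme that makes the sulphate donor for proteoglycans, 68.1 against 35.4 (0.94). All of these differences exceeded counting error.

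Matn4 had a log2 ratio of 0.87, but 96.6% of its fragments were in peaks shared with another gene, and with shared peaks left out the ratio was −0.35 (−1.44 to 0.58). Col9a2, the remaining type IX collagen chain, had 54.8 against 32.3 FPM, a log2 ratio of 0.76 (0.61 to 0.91), and Susd5 and Ucma also had log2 ratios of 0.76. Xylt1, which starts the sugar chains of proteoglycans, was at 0.62 and Hapln1, the link protein that fastens aggrecan to hyaluronan, at 0.60. Together with Col11a2, Scin, Matn3, Ncmap and Papss2 these complete the genes of the matrix list past 1.5-fold. Scin and Ncmap are on the list without encoding proteins of the matrix.

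The other matrix genes lay closer to the remaining nuclei. Chst11, Mia, Col11a1, Chadl, Comp, Col27a1 and Slc26a2 had log2 ratios of 0.42, 0.41, 0.38, 0.33, 0.33, 0.31 and 0.17, each with an interval above 0. The only peak of Mia is also within reach of another gene. Chst11 as a whole gene stood far below the highest of its intron peaks, at 2.45. Epyc, encoding a small leucine-rich proteoglycan, had 17.9 against 21.8 FPM, a log2 ratio of −0.28 (−0.55 to −0.03), the only matrix gene lower in members. Cytl1 had no peak.

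**Figure D1:**
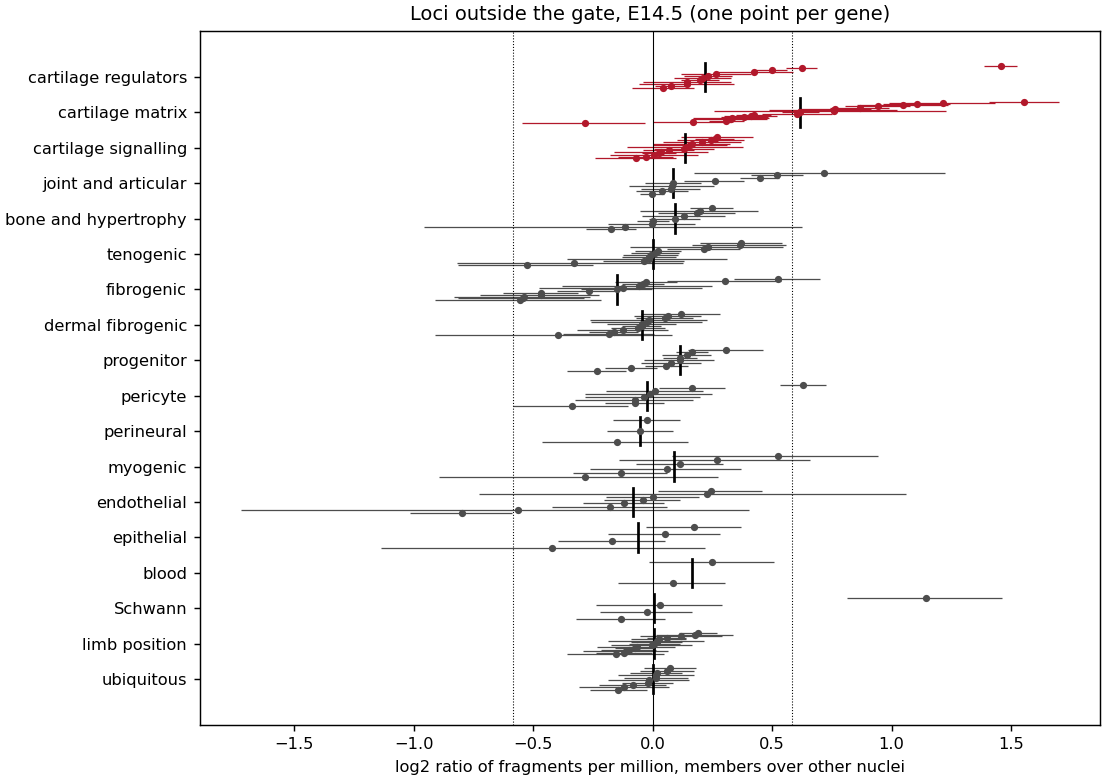
Log2 ratio of FPM in members over the other nuclei (horizontal axis) for genes of 18 lists (vertical axis), outside the gate at E14.5. Points are genes with 95% counting intervals, thick bars are list medians and dotted lines mark 1.5-fold; the 3 cartilage lists are in red, and the matrix list, with a median of 0.62, lies furthest to the right.

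Among the regulators, Wwp2 and the SOX partners carried the signal rather than Sox9. The 12 regulator genes had a median log2 ratio of 0.22 (0.11 to 0.33), and 2 were 1.5-fold or more higher. Wwp2 had 276 FPM in members and 100 in the other nuclei, a log2 ratio of 1.46 (1.39 to 1.53). Sox6 had 275 against 178 FPM, a log2 ratio of 0.62 (0.56 to 0.69), and Sox5 had 284 against 201, a log2 ratio of 0.50 (0.43 to 0.56). Single peaks outside promoters reached 2.09 in Sox5 (chr6:144056314-144057459) and 1.54 in Sox6 (chr7:115509908-115510575).

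Sox9 had 85.6 against 74.0 FPM, a log2 ratio of 0.21 (0.09 to 0.33), above counting error but within the central 95% of all genes. Its reading rests on a single peak over the gene and 2000 bp upstream, so distant enhancers of the locus are not included. Nkx3-2, a repressor that promotes chondrogenesis, had a log2 ratio of 0.43, and Foxa3, Runx3 and Trps1, all transcription factor genes, had 0.27, 0.23 and 0.20, with intervals above 0. Both peaks of Foxa3 are shared with another gene. Zbtb20, a zinc finger repressor gene, was at 0.08 (0.01 to 0.14), and −0.75 (−1.39 to −0.17) when only peaks at starts of its basic transcripts were kept. That set leaves out the peak over the outermost start of the gene, chr16:42874311-42877006, which was at 0.03 (−0.06 to 0.13). Foxa2, Barx1 and Cbfb were at 0.15, 0.15 and 0.04, with intervals that included 0.

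Within Wwp2 the difference was uneven along the gene. The main promoter peak, chr8:107435761-107437396, had 28.1 FPM in members and 25.4 in the other nuclei, a log2 ratio of 0.15 (−0.06 to 0.35). An internal peak at a further start site, chr8:107544134-107545707, had 53.3 against 13.9 FPM, a log2 ratio of 1.94 (1.77 to 2.11), and ended 5537 bp before the start of the Mir140 hairpin. The intron peak shown above, chr8:107522190-107523021, had 29.5 against 5.07 (2.54), and another, chr8:107472360-107473319, had 33.1 against 6.86 (2.27). The peak at chr8:107497085-107499256 was at −0.24 (−0.58 to 0.08). The internal peaks and not the main promoter thus accounted for the value of the gene.

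Genes of the signals that pace cartilage growth differed little. The 14 signalling genes had a median log2 ratio of 0.14 (−0.05 to 0.32) and none passed 1.5-fold. Among BMP signalling genes, the antagonist Nog had a log2 ratio of 0.27, the receptor gene Bmpr1b 0.26 and the antagonist Grem1 0.16. Fgfr3, the receptor that restrains chondrocyte proliferation, had 62.3 against 52.6 FPM (0.24), and Pthlh, the ligand that delays hypertrophy, 44.8 against 38.8 (0.21), while its receptor gene Pth1r was at 0.07. Of the hedgehog genes, the ligand Ihh was at 0.14 (−0.11 to 0.38), the effector Gli1 at 0.13, the receptor Ptch1 at 0.03 and the decoy receptor Hhip at −0.07. The Wnt antagonists Frzb and Wif1 were at 0.16 and −0.03, the Wnt receptor gene Fzd9 at 0.04, and Npr2, the receptor for C-type natriuretic peptide, at 0.01.

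As list medians, loci of neighbouring lineages were at the level of the other nuclei or below it. The 13 fibrogenic genes had a median log2 ratio of −0.15 (−0.30 to −0.00), and none passed 1.5-fold. Dpt and Dcn, both encoding small matrix proteins of connective tissue, had log2 ratios of −0.56 and −0.54, and Cd34, a surface marker of connective tissue progenitors, −0.54. Col3a1, the chain of type III collagen, had 46.9 FPM in members and 64.7 in the other nuclei, a log2 ratio of −0.47 (−0.62 to −0.31). Postn was at −0.47 and Pdpn at −0.27. Lum, a proteoglycan gene on the same list, lay the other way, with 38.1 against 26.5 FPM (0.52), as did the fibroblast marker Pi16 at 0.30 (0.06 to 0.54).

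The 12 tenogenic genes had a median of 0.00 (−0.11 to 0.11). Scx, the tendon transcription factor gene, was at 0.36, although its only peak lies fully within reach of another gene, and Fmod, a collagen-binding proteoglycan gene, at 0.37. Tnmd and Mkx, a further pair of tendon genes, were at −0.33 and −0.01, with intervals that included 0. C1qtnf3 was the lowest of the list at −0.53. The 12 dermal fibrogenic genes had a median of −0.05 (−0.16 to 0.07). The 9 progenitor genes had a median of 0.11. Aldh1a2, encoding a retinoic acid synthesis enzyme, was the highest of them at 0.31 (0.15 to 0.46), followed by Tcf7l2 at 0.17 and Id1 at 0.14, while Hic1 itself, which drives the Cre, had 78.3 against 92.1 FPM, a log2 ratio of −0.23 (−0.36 to −0.11).

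Bone genes did not stand out. The 9 readable of 13 bone and hypertrophy genes had a median of 0.09. Runx2, the master regulator of bone formation, was at 0.00 (−0.07 to 0.07), Mef2c, a driver of hypertrophy, at 0.25, and Col1a1 at −0.18. Among 9 joint and articular genes, with a median of 0.09, Prg4, the lubricin gene, was at 0.72 on 4.84 against 2.94 FPM, Dkk3 at 0.52 and Erg at 0.45, while the joint marker Gdf5 was at 0.08 (−0.10 to 0.26). The limb position genes, most of them Hox genes, had a median of 0.01, and the 10 ubiquitous genes −0.00.

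Markers of other cell types had small list medians. The median log2 ratio was −0.02 over 8 pericyte genes, −0.05 over 3 perineural, 0.09 over 6 myogenic, −0.08 over 8 endothelial, −0.06 over 4 epithelial, 0.17 over 2 blood and 0.00 over 4 Schwann genes. The interval of the middle gene or genes included 0 for each of these lists. Summed FPM in members and the other nuclei were 97.4 and 94.3 for the myogenic list and 78.8 and 78.5 for the epithelial list. The sums were 380 and 338 FPM for pericyte, 135 and 139 for perineural, 192 and 215 for endothelial, 41.9 and 37.7 for blood and 95.9 and 92.3 for Schwann genes. Gata1, Csf1r, Hbb-bt and Lyz2 of the blood list had no peak and so no value. Single genes departed from these medians. Sox10, a SOX gene used in neural crest, had 12.8 against 5.81 FPM (1.14), on 98 member fragments, and Cspg4, which encodes a proteoglycan of pericytes and of cartilage, had 132 against 85.3 (0.63). Tek, an angiopoietin receptor gene, was the furthest below 0, with 43.5 FPM in the other nuclei and a log2 ratio of −0.80 (−1.02 to −0.59).

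Over all genes, the highest ratio belonged to Scrg1. Scrg1 had 53.5 FPM in members and 15.4 in the other nuclei, a log2 ratio of 1.80 (1.63 to 1.96). With nuclei thinned to 4000 fragments, 18.7% of members and 5.57% of the other nuclei had a fragment there. Its promoter peak, chr8:57455991-57458389, held 88.0% of the member fragments and had a log2 ratio of 2.11. Pde6a, a phosphodiesterase subunit of photoreceptors, and Hao1, a peroxisomal oxidase, both followed Col11a2 with 1.48. After Wwp2 came Gzmm, a granzyme (1.43), Pkd1l1, a cilium channel protein (1.39), Mas1, an angiotensin peptide receptor (1.35), Fam180a (1.33), Slc35e3, a member of a sugar transporter family (1.17), A530016L24Rik (1.11), Zc3h12d (1.08) and 4930523C07Rik (1.05), with Scin and Matn3 among them. A peak within a gene need not act on that gene, and for Pde6a a single intron peak held 76.0% of the member fragments.

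The lowest gene was Fam50b, with 5.498 against 12.9 FPM, a log2 ratio of −1.23 (−1.71 to −0.79). It was followed by Gm37389 (−1.19), Ankdd1b (−0.996), the cadherin gene Cdh26 (−0.99), 4930470P17Rik (−0.94), the pigment gene Oca2 (−0.89), Izumo1r (−0.87), the hormone receptor gene Trhr (−0.81), the fatty acid receptor gene Cd36 (−0.80) and 1700034E13Rik (−0.80).

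The level of cartilage loci outside the gate did not climb evenly with the score. Across deciles of the nuclei ordered by score, the matrix list went from 990 FPM in the lowest decile to 1054 in decile 7, 1104 in decile 8, 1153 in decile 9 and 1529 in the members, which are decile 10. Nuclei without a gate count fill the lowest deciles in arbitrary order. Wwp2 went from 79.8 in the lowest decile to 151 in decile 9 and 276 in the members, and Scrg1 from 10.53 to 25.1 and 53.5. Sox9 was at 78.4, 79.1 and 85.6 in the same deciles. Col3a1 went the other way, from 68.7 to 55.4 and 46.9. Against the nuclei below the highest 20%, the matrix median was 0.91 for the top 5% of scores, 0.35 for the next 5% and 0.13 for nuclei between 10% and 20%.

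**Figure D2:**
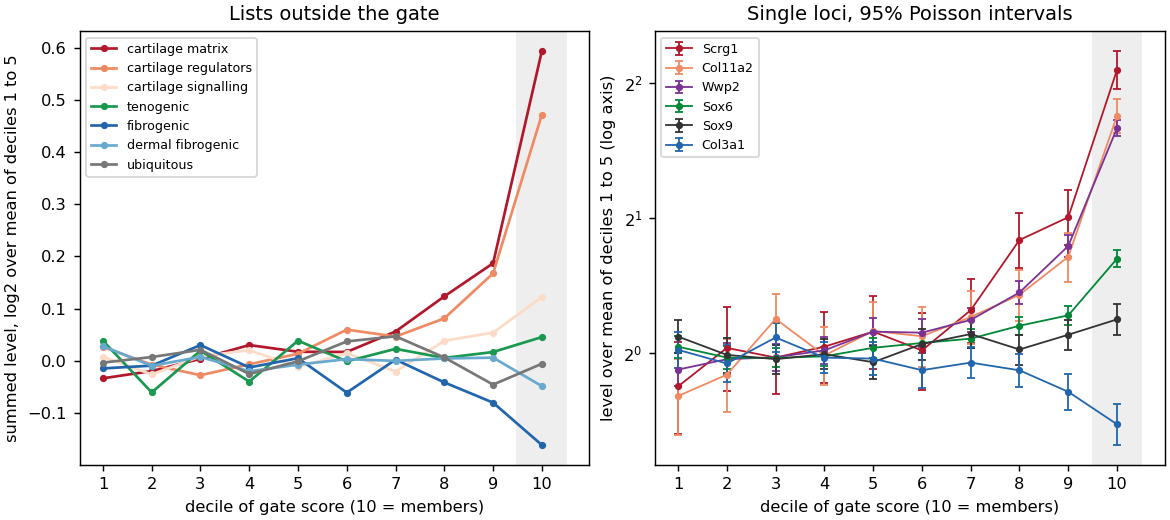
Nuclei of the E14.5 library in deciles of the gate score (horizontal axis), with the members as the shaded decile. Left, summed level of 7 lists as log2 over the mean of the 5 lowest deciles. Right, level of 6 genes relative to the same mean on a log axis with 95% Poisson intervals; the steps into the last decile are larger than any before for the matrix list and Wwp2.

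Members did not form a single population. Nuclei were clustered on 96963 autosomal peaks that lay more than 100 kb from any listed gene, so neither the gate nor the gene lists could place a nucleus directly. Of 7 clusters, cluster 7 (750 nuclei) had 425 members, 56.7% of its nuclei (53.0 to 60.2). It held 39.8% of all members (36.9 to 42.8) and 3.39% of the other nuclei (3.03 to 3.77). Members made up from 4.11% to 8.51% of the other 6 clusters. With 10 clusters the richest cluster was 57.9% members, and with 5 clusters it was broader, at 29.2%.

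**Figure D3:**
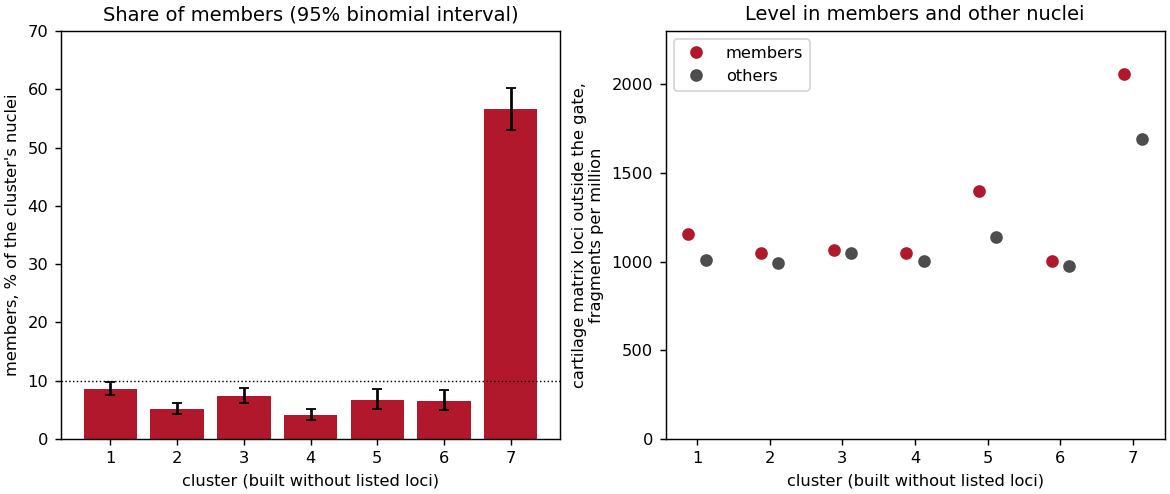
Left, members as a share of each cluster of E14.5 nuclei (bars, % with 95% binomial intervals), with the dotted line at 10%. Right, summed level of matrix loci outside the gate (FPM) in members and other nuclei of each cluster; cluster 7 was 56.7% members and its members and other nuclei stood at 2056 and 1694 FPM.

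The 425 members in cluster 7 carried most of the cartilage signal. They had a median of 12 gate counts and 2056 FPM over the matrix list, against 8 gate counts and 1121 FPM in the 642 members elsewhere. The 325 other nuclei of cluster 7 had a median of 5 gate counts but 1694 FPM, above the members outside it. The 9274 other nuclei elsewhere had 1020. Relative to those nuclei, the matrix median was 1.08 in members of cluster 7 (15 of 19 genes past 1.5-fold), 0.997 in its other nuclei (12 genes) and 0.15 in members elsewhere (1 gene). Clusters were made from these same nuclei, so these contrasts are descriptive.

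Many single genes, though not all, followed the same order. Col11a2 was at 2.55 in members of cluster 7, at 1.91 in its other nuclei and at 0.29 in members elsewhere. The corresponding log2 ratios of Wwp2 were 2.38, 1.93 and 0.44, of Scrg1 2.77, 2.21 and 0.79, and of Sox9 0.37, 0.29 and 0.10. Hapln1 was at 1.32, 0.997 and −0.20. Susd5 was instead at 1.62 (1.29 to 1.95) in the other nuclei of cluster 7 and at 1.41 (1.08 to 1.74) in its members. Nkx3-2 was at 0.80 (0.57 to 1.02) and 0.73 (0.50 to 0.94) in these groups. For both genes each interval held the value of the other group, so their order is within counting error. The fibrogenic median was −0.41 (−0.97 to 0.10), −0.31 and −0.03 in the same groups. Of its genes, Dcn was at −1.41, −1.17 and −0.15 and Cd34 at −1.34, −0.98 and −0.17, while Lum lay the other way at 1.01, 0.98 and 0.13. Over all genes, 421 were 1.5-fold or more higher and 447 lower in members of cluster 7, of 14311 tested. The numbers were 251 and 301 of 14292 in its other nuclei and 5 and 6 of 14330 in members elsewhere.

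Within clusters the gate still separated levels in some cases. Clusters other than cluster 7 were not stable, since another seed gave an adjusted Rand index of 0.404 although its richest cluster was again 56.6% members, so their values hold for this clustering only. In cluster 7 members exceeded the other nuclei over the matrix list by a log2 ratio of 0.28 (0.23 to 0.33). In cluster 5 the levels were 1401 and 1139 FPM, a log2 ratio of 0.30 (0.18 to 0.41), and in cluster 1 the ratio was 0.20 (0.12 to 0.27). In clusters 2, 3, 4 and 6 it lay between 0.03 and 0.08 with intervals that included 0.

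The same rule was applied to the other libraries on their own peaks and gave 334 of 3336 nuclei at E12.5 and 1221 of 12213 at E16.5. The 3 libraries are separate samples, although stage cannot be told apart from the tissue segment between E14.5 and E16.5, or from the digestion between E12.5 and E14.5, and E16.5 nuclei were deeper (members had a median of 25 gate counts at E16.5, against 9 at E14.5 and 10 at E12.5). The median promoter share was 42.0% in members and 36.0% in the other nuclei at E16.5, and 39.5% and 39.3% at E12.5. The libraries shared 213 barcodes between E12.5 and E14.5, with 2 of them members in both, 401 between E14.5 and E16.5, with 4 members in both, and 151 between E12.5 and E16.5, with none.

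Peaks chosen at E14.5 kept their direction at E16.5. Of the 715 peaks higher in members at E14.5, 709 could be read at E16.5, where their median log2 ratio was 1.92. Of the 709, 99.4% were above 0, against 51.8% of all, and 86.9% were 2-fold or more higher, against 4.78% of all peaks tested at E14.5 that could be read there. Of the lower peaks, 728 could be read, with a median of −1.19, and 70.9% were 2-fold or more lower against 9.04% of all. Among all peaks of the E16.5 library, 5.76% were 2-fold or more higher and 21% were 2-fold or more lower in its members. Of the peaks shown above, the Ift88 intron was at 4.33, the Wwp2 intron at 4.21, the Matn3 intron at 4.14 and the Rab11fip4 intron at 3.83, while the lowest peak was at −1.74.

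At E12.5 the same peaks differed less. Of the higher peaks 410 could be read, with a median of 0.54. Of these, 92.7% were above 0, against 49.0% of all, and 13.4% were 2-fold or more higher, against 0.273% of all. The lower peaks had a median of −0.29 over 300 peaks. The Wwp2 intron peak was at 1.74 (1.27 to 2.19) and the Rab11fip4 peak at 1.53 (1.03 to 1.997) at E12.5, while the Ift88 peak, with 4 member fragments, was at 0.75 (−1.22 to 2.26). For these library-wide comparisons, the background of genes 1.5-fold or more higher was 0.0884% at E12.5 and 4.39% at E16.5, and of genes 1.5-fold or more lower 0.216% and 4.17%.

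Genes gave the same order of stages. Of the 88 genes higher at E14.5, 87 were above 0 at E16.5, where 68.8% of all genes were, and 78 were past 1.5-fold, which is 88.6% of the E14.5 list and 13.9% of the 561 such genes at E16.5 among those tested at both stages. Of the 50 lower genes, 48 were below 0, where 31.2% of all genes were, and 35 past 1.5-fold, 70% of the E14.5 list and 10.0% of the 349 at E16.5. At E12.5, 47 of the 88 could be read, and 39 were above 0, against 51.5% of all genes. Of the 47, 4 were past 1.5-fold, against 9 of the 10144 genes tested at both stages. Of the 50 lower genes 15 could be read there, with 12 below 0, against 48.5% of all genes. None of the 15 was past 1.5-fold, against 20 of the 10144. Across 14486 genes the log2 ratios at E14.5 and E16.5 had a Pearson r of 0.62 and a Spearman rho of 0.49, as a description, since genes are not independent replicates. Against E12.5 r was 0.18 over 10144 genes.

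**Figure D4:**
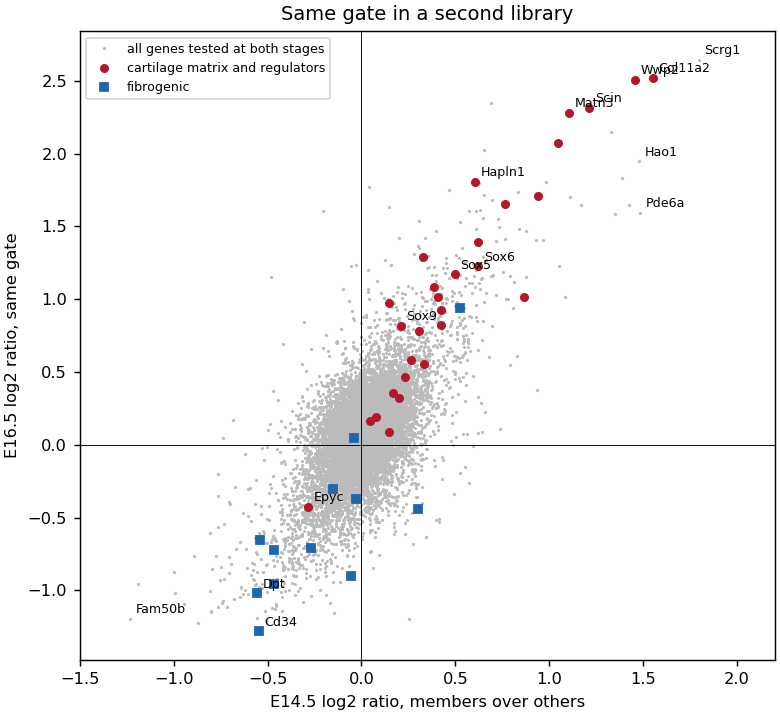
Log2 ratio of members over other nuclei at E14.5 (horizontal axis) and with the same gate in the E16.5 library (vertical axis), 1 point per gene, over 14486 genes. Cartilage matrix and regulator genes are red circles and fibrogenic genes blue squares; of the 88 genes past 1.5-fold higher at E14.5, 87 lie above 0 at E16.5, against 68.8% of all genes.

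Values by stage, from the earliest to the latest, were 0.19, 0.62 and 1.42 for the matrix median, 0.14, 0.22 and 0.70 for the regulators and −0.04, 0.14 and 0.24 for the signalling genes. The fibrogenic median was −0.05, −0.15 and −0.71, while the tenogenic median was 0.08, 0.00 and −0.01. Over all cartilage genes outside the gate that could be read (45, 45 and 46) the median was 0.08, 0.27 and 0.80, and thinning all nuclei to 4000 fragments before gating gave 0.02, 0.25 and 0.82. Thinned in the same way, the matrix median was 0.14, 0.53 and 1.30 and the fibrogenic median 0.07, −0.24 and −0.63. At E12.5 the intervals of all these unthinned medians included 0, with −0.27 to 0.62 for the matrix and −0.29 to 0.17 for the fibrogenic list. Sox9 was at 0.03, 0.21 and 0.82, Sox5 at 0.12, 0.50 and 1.17, and Sox6 at 0.26, 0.62 and 1.23. Hapln1 was at −0.03, 0.60 and 1.81 and Scin at 0.01, 1.21 and 2.31, whereas Wwp2 was already at 0.75 at E12.5, before 1.46 and 2.51, and Scrg1 at 0.91, before 1.80 and 2.64. The differences between stages were not tested.

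Motif letters were then counted in the central 300 bp of distal peaks, on both strands, in 691 peaks that were higher in members, 728 that were lower and all 24438 distal peaks tested. The SOX hexamer ACAATG occurred in 12.2% of the higher windows, 21.4% of the lower and 12.6% of all. ACAAAG occurred in 24.9% (21.7 to 28.3), 25.8% and 21.8%. The paired arrangement of CAAT and ATTG with 3 to 5 bases between them occurred in 0.434%, 1.099% and 0.769%. None of these SOX letter patterns was more frequent in the higher than in the lower windows. Relative to all windows, the share in the higher windows was 1.14 times for ACAAAG (0.99 to 1.30), 0.97 for ACAATG and 0.56 for the pair. In 200 bp windows the value of ACAAAG was 1.22 (1.03 to 1.42).

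The NFI arm TTGGCA occurred in 30.8% (27.4 to 34.4) of the higher windows and 28.3% (25.05 to 31.7) of the lower, both above the 22.3% (21.8 to 22.8) of all windows. Both arms as a pair, TTGGC and GCCAA with 5 bases between them, occurred in 0 of 691 higher windows, which at a limit of 3 counts allows a share of up to 0.434%. The pair also occurred in 0 of 728 lower windows, and in 26 of 24438 overall. The E-box CAGATG separated the sets most, with 19.4% (16.5 to 22.5) of the higher, 42.7% (39.1 to 46.4) of the lower and 29.3% (28.7 to 29.8) of all windows. The RUNX letters TGTGGT occurred in 23.3% (20.2 to 26.6), 20.6% and 19.9%, and TGCGGT in 5.79%, 3.43% and 5.36%. The AP-1 letters TGANTCA occurred in 8.68%, 14.8% and 10.49%, the TEAD letters GGAATG in 21.1%, 24.9% and 21.3%, and the homeobox letters TAATTA in 7.96%, 7.97% and 7.55%. The GC content differed between the sets, with a median of 48.7% in the higher, 43% in the lower and 48.3% in all windows, and its part in these shares was not tested.

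**Figure D5:**
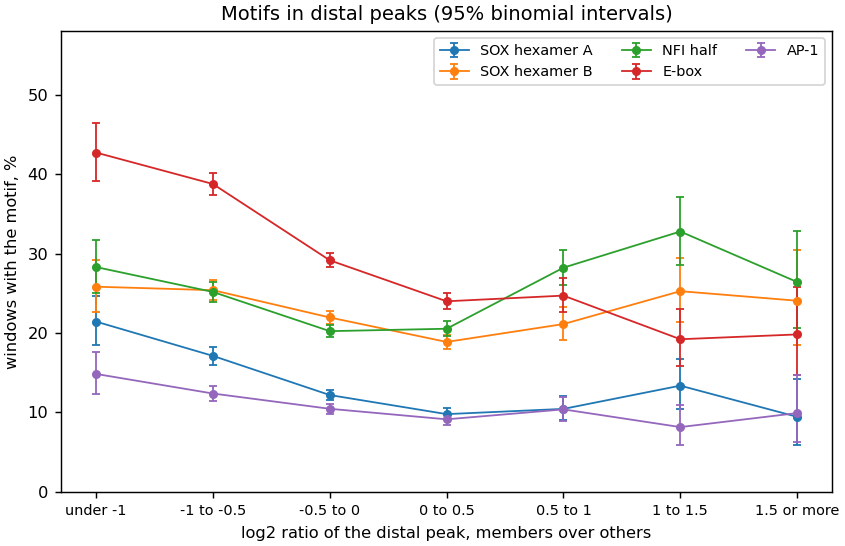
Share of distal 300 bp windows with each motif (vertical axis, % with 95% binomial intervals) by class of the peak's log2 ratio in members over other nuclei (horizontal axis). SOX hexamer A is ACAATG and B is ACAAAG; the E-box goes from 42.7% in the lowest class to 19.2% and 19.8% in the highest classes, and NFI in the legend is the arm TTGGCA.

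In the E16.5 library the letters were counted in its own distal peaks, 4797 higher, 18036 lower and 72389 in all. TTGGCA occurred in 28.5%, 26.0% and 23.2% of these, CAGATG in 22.2%, 38.5% and 29.9%, ACAATG in 10.1%, 19.0% and 14.6%, and ACAAAG in 21.7%, 25.8% and 23.4%. TGTGGT occurred in 24.9%, 20.9% and 21.2%, and TGANTCA in 13.6%, 19.9% and 15.4%. The order of higher and lower windows was the same as at E14.5 for each of these 6 patterns, although at E14.5 the intervals of the higher and lower windows overlapped for the NFI arm, the RUNX letters and the second SOX hexamer.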

How the data were processed

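The authors made droplet ATAC-seq libraries of nuclei and deposited raw counts of transposase cut sites for each peak in each nucleus, with peaks called in each library alone. The submitters' processing notes name Cell Ranger ATAC 1.1.0, whereas the file headers give 1.0.1 (E12.5 and E14.5) and 1.2.0 (E16.5). No E14.5 nucleus with at least 8000 counts was left out and no doublet caller was run. The deepest 5% were left out as an alternative. The E14.5 library held 204289151 counts in all.

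Cut sites were divided by 2 and rounded up to give fragments, since a fragment has 2 cut sites. The level of a gene was the sum over peaks outside the gate that overlapped its body or the 2000 bp upstream (GENCODE basic annotation of GRCm38), per 1000000 fragments outside the gate. With 1 library there was no test, and called means past a fold, 1.5 for genes and 2 for peaks. A peak was a promoter peak where it overlapped the 1000 bp before the start of a transcript of the basic annotation or the 100 bp after it. Ratios carry exact conditional binomial intervals, shares Clopper-Pearson intervals and levels Poisson intervals. The interval of a list's median is that of its middle gene or genes. No pseudocount was used. Clusters came from latent semantic indexing and k-means with k = 7, as the study used, and 10 starts. Python 3.11.15, scipy 1.17.1, scikit-learn 1.9.0 and samtools 1.23.1 were used, and the steps were tested on simulated data. Named genes were all genes of the cartilage lists, the 3 highest and lowest of other lists or those the study's text names, the 15 highest and 10 lowest of all genes and the 10 highest peaks. Not every such gene of the other lists is given, and the lowest peak and peaks inside Wwp2, Sox5 and Sox6 were chosen after their values were seen. Members and lists were chosen with earlier results of these data known.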

Additional observations from a re-analysis of the deposited data

Results flagged for a closer look

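The ratio of members over other nuclei lay on opposite sides of 0 at E14.5 and another stage, with both intervals clear of 0, for 8 of 205 genes, 5 at E12.5 and 3 at E16.5. The 205 were the listed genes and the highest and lowest genes at E14.5, and some had no value at a stage. None of the 18 medians compared did so. These included the pooled cartilage loci and left out the blood list. The difference between stages was not tested for any of them.

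Fgfr3, the growth-restraining FGF receptor, had a log2 ratio of −0.50 at E12.5 and 0.24 at E14.5, and Pthlh had −0.32 and 0.21. The cartilage matrix gene Comp was at −0.34 and 0.33, and the hindlimb factor Pitx1 at −0.59 and 0.18. Col1a1 went the other way, at 0.27 and −0.18. Against E16.5, Pi16 was at −0.44 there and 0.30 at E14.5, Notch3 at −0.23 and 0.16, and Axin2 at 0.0839 and −0.16.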

How the results depend on the processing

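Over 36 settings, 118 results gave 2771 values, of which 2495 kept to the spread of the value reported and 274 moved, and the 2 named next changed sign from an interval clear of 0; 3 settings were added after seeing the data. Zbtb20 was at −0.75 with promoter peaks only, a set without the peak over its outermost start, and Matn4 at −0.35 with peaks of 1 gene only. Over 27 alternatives the median of all cartilage loci outside the gate stayed between 0.19 and 0.35, that of the matrix list between 0.39 and 0.88 and that of the fibrogenic list between −0.40 and −0.10. Medians near 0 crossed it: 21 of 27 stayed on the side reported for the tenogenic, 19 for the pericyte and Schwann, 22 for the perineural and ubiquitous, 24 for the myogenic and epithelial and 11 for the limb position list.

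The matrix median was 0.88 for the highest 5%, 0.43 for the highest 20%, 0.53 when nuclei were thinned to 4000 fragments before gating and 0.39 with promoter peaks only. The fibrogenic median was −0.38 for the highest 5% and −0.40 with promoter peaks only. Genes past 1.5-fold, higher then lower, numbered 206 and 178 for the highest 5%, 28 and 8 for the highest 20%, 47 and 15 with equal weight per gate locus, 53 and 33 when thinned after gating, 27 and 14 when thinned before, 23 and 21 with promoter peaks only, 246 and 289 with no minimum beyond 1 fragment per group, 30 and 11 at a higher minimum of fragments, 48 and 32 in the deeper nuclei gated alone and 46 and 24 in the shallower. Higher genes numbered 55 with binarised peaks, and lower genes 108 on cut sites and 30 with the other nuclei weighted to the members' depth and promoter share. Peaks past 2-fold numbered 2360 higher and 3328 lower at a minimum of 200 fragments, and 139 and 97 at 1000. The richest of 5 clusters was 29.2% members. The share over the share in all windows was 0.777 for TGCGGT in peaks past 3-fold and 0.623 for TGANTCA in 200 bp windows.

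Leaving out 1 gate locus at a time gave medians of 0.21 to 0.28 for all cartilage loci, 0.52 to 0.65 for the matrix, −0.27 to −0.14 for the fibrogenic, −0.01 to 0.03 for the tenogenic, −0.08 to −0.02 for the dermal fibrogenic and 0.08 to 0.16 for the progenitor list. It gave 45 to 91 higher genes and 32 to 52 lower ones, and 45 came without Col9a3. No paired analysis was possible because each stage had 1 library. Ratios of single loci are limited by few fragments per nucleus, and no value here carries replicate error.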
